A study of Rattus norvegicus with 2 samples.

Results

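The miR-106b-93-25 cluster is a group of 3 miRNA hairpins that lie within 1 host gene, Mcm7. Its members were taken by name, as every row of the deposited count table for miR-106b, miR-93 or miR-25 on either arm. This gave 6 of the 635 miRNAs listed, both arms of each hairpin, among them mmu-miR-106b-5p, mmu-miR-106b-3p, mmu-miR-93-5p and mmu-miR-25-3p, which are written below without the mouse prefix. Small RNA was sequenced from exosomes of the culture medium of primary cardiomyocytes, prepared from Wistar rat pups of 1 to 2 days of age. The cells were grown with bromodeoxyuridine, which holds back dividing non-muscle cells, and starved of serum. They were then cultured for 48 h with 1 μmol/L angiotensin II (Ang II) to give hypertrophic cardiomyocyte exosomes (HC-Exo), or without it to give normal cardiomyocyte exosomes (NC-Exo). Each condition had a single library. No difference below therefore has a replicate check, and every test compares the 2 libraries, not the conditions. Exosomes were isolated with a reagent, and vesicles of other cells in the culture were not separated from those of cardiomyocytes. Less of a miRNA per vesicle and fewer vesicles that carry it cannot be told apart.

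A miRNA hairpin is cut to a duplex, from which 1 strand (the guide) is usually loaded into an Argonaute protein and the other (the passenger) is mostly lost. The arms are named 5p and 3p by their side of the hairpin, and bases 2 to 8 of the loaded strand, the seed, pair with target mRNAs. Mcm7 encodes a subunit of the helicase that opens DNA for replication, and the cluster is transcribed with it under E2F control. Its miRNAs are known for repressing the cell cycle inhibitor p21 and the pro-apoptotic protein Bim. They are paralogues of the miR-17-92 cluster.

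The mature sequences show which arms share a seed, and they are given 5′ to 3′ with the seed in capitals, from the RefSeq table of the rat assembly GRCr8. All 6 rows of the cluster were matched there by name. The rows of the count table carry mouse names.
miR-106b-5p: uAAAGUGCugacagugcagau
miR-106b-3p: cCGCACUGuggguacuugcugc
miR-93-5p: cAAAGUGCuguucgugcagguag
miR-93-3p: aCUGCUGAgcuagcacuucccga
miR-25-5p: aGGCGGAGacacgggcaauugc
miR-25-3p: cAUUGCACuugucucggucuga

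The seed AAAGUGC of miR-106b-5p and miR-93-5p is also that of miR-17-5p and miR-20a-5p in the miR-17-92 cluster. The seed AUUGCAC of miR-25-3p is also that of miR-92a-3p in the same paralogue, of miR-92b-3p and of miR-32-5p. Relatives with members' seeds are shown here because their rows could share reads with those of the cluster.
miR-17-5p: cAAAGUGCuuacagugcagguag
miR-20a-5p: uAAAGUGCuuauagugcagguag
miR-92a-3p: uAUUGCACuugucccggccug
miR-92b-3p: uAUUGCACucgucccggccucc
Counted from the 5′ end, miR-106b-5p matched miR-17-5p at 18 of 21 positions, miR-20a-5p at 18 of 21 and miR-93-5p at 16 of 21. For miR-25-3p, 18 of 21 positions matched miR-92a-3p and 16 of 22 matched miR-92b-3p. The seeds of miR-106b-3p, miR-93-3p and miR-25-5p occurred in no other row with a sequence, and 312 of the 635 rows had one.

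The hairpins of miR-93 and miR-25 show where the arms lie, with both mature arms in capitals. In GRCr8 they are on the minus strand of chromosome 12, Mir93 at chr12:22156844-22156930 and Mir25 at chr12:22156641-22156724. The mature arms of miR-106b lie at chr12:22157103-22157123 (5p) and chr12:22157062-22157083 (3p), so the order of transcription is miR-106b, miR-93 and miR-25. All 3 hairpins are inside the span of Mcm7, where they are known to be intronic. The deposited files give names and no coordinates.
Mir93: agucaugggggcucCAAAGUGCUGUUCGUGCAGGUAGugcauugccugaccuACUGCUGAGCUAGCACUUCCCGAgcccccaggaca
Mir25: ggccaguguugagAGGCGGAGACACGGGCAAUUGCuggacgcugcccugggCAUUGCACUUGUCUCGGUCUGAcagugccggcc

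The libraries held 102608 (NC-Exo) and 133155 (HC-Exo) miRNA reads, and levels are reads per 1000000 of these reads (RPM). Of the miRNAs that mark cell types, the 5 of cardiomyocytes were all listed, with 16.7% of NC-Exo reads and 18.1% of HC-Exo reads, nearly all miR-1a-3p. The 2 endothelial miRNAs (miR-126a arms) had 9.11% and 6.68%, the 2 smooth muscle ones 2.30% and 2.69%, and the 3 mesenchymal ones 1.52% and 1.22%. Members of these lists went both ways, as the endothelial sum was lower in HC-Exo through miR-126a-5p (8.65% and 6.15%) but miR-126a-3p was not (0.462% and 0.535%), and of the mesenchymal miRNAs miR-214-3p was lower (1.33% and 0.946%) and both miR-199a arms were higher. Of 6 blood miRNAs, 5 were listed, with 0.709% and 0.773%, and miR-144-3p was not listed. The part of other cells in the levels of the cluster was not tested.

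The cluster was dominated by miR-25-3p in both libraries. NC-Exo had 1317 reads of it and HC-Exo had 2110, or 12835 RPM (12155 to 13543, 95% Clopper-Pearson) and 15846 RPM (15182 to 16531). It was the miRNA of rank 17 in NC-Exo and 16 in HC-Exo. This 1 arm made up 86.8% of the cluster reads in NC-Exo (84.9 to 88.4%) and 83.1% in HC-Exo (81.6 to 84.5%).
Next was miR-93-5p, with 180 NC-Exo reads and 369 HC-Exo reads, or 1754 RPM (1508 to 2030) and 2771 RPM (2496 to 3068). In NC-Exo, miR-25-3p had 7.32 times the reads of miR-93-5p (6.26 to 8.60), and in HC-Exo 5.72 times (5.12 to 6.40). The RPM count whole miRNAs of 21 to 23 nt and were not divided by length.
The arms miR-93-3p and miR-106b-3p were far below these. miR-93-3p had 11 and 25 reads, or 107 RPM (53.5 to 192) in NC-Exo and 188 RPM (122 to 277) in HC-Exo. miR-106b-3p had 8 and 32 reads, or 78.0 RPM (33.7 to 154) and 240 RPM (164 to 339). These neighbours in the order of levels did not differ beyond counting error in either library, the ratio of miR-93-3p to miR-106b-3p being 1.38 (0.504 to 3.94) in NC-Exo and 0.781 (0.444 to 1.36) in HC-Exo.
The remaining arms were at the limit of detection. miR-25-5p had 2 reads in each library. miR-106b-5p had 0 of 102608 reads in NC-Exo, below a limit set at 3 reads (29.2 RPM), and 1 read in HC-Exo. Its 95% Clopper-Pearson interval in NC-Exo reached 36.0 RPM. Intervals and limits cover the counting error of reads only. PCR copies without molecular identifiers are not independent molecules, so for molecules the intervals may be too narrow.

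**Figure D1:**
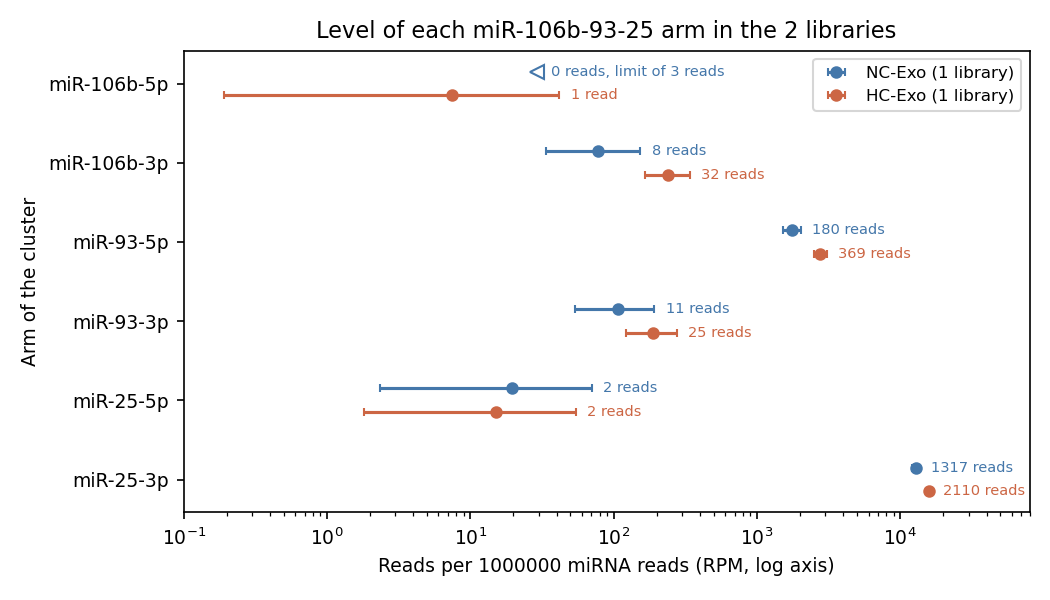
Level of the 6 arms of the cluster in RPM on a log axis, in NC-Exo (blue) and HC-Exo (red), 1 library each. Points are the measured level, bars the 95% Clopper-Pearson interval of the count, and the open triangle the limit of 3 reads where no read was counted. miR-25-3p lies highest, at 12835 and 15846 RPM, and miR-106b-5p has 0 and 1 reads.

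All 4 arms with at least 10 reads in total were higher in HC-Exo, with log2 ratios (HC-Exo/NC-Exo) above 0. This was so of 56.2% of the 340 miRNAs with that many reads. The largest ratio was that of miR-106b-3p, the smallest that of miR-25-3p. The test was an exact binomial one, two-sided, of the share of a miRNA's reads that fell in HC-Exo, against the share set by the library totals, adjusted by Benjamini-Hochberg over the 340 miRNAs. miR-25-5p and miR-106b-5p had 3 reads or fewer in each library, so no ratio is given for them.
For miR-106b-3p, formerly called the star strand of its hairpin, the ratio was 3.08 (95% interval from the exact binomial share 1.39 to 7.74), or 1.62 on the log2 scale (0.48 to 2.95), with an adjusted p = 0.0148 from the exact test. It was the only arm of the cluster that changed by at least 1 log2 unit with an adjusted p-value under 0.05. Of all miRNAs tested, 4.71% did so, and 2.65% did so with the higher level in HC-Exo. Of the 340 miRNAs, 13 had a larger log2 ratio. Large ratios were mostly those of miRNAs with few reads, and miR-106b-3p had 40 over both libraries. Among the 135 miRNAs with at least 100 reads, 1 passed both limits and the largest log2 ratio was 1.10.
For miR-93-5p, a guide strand of the AAAGUGC seed family, the ratio was 1.58 (1.32 to 1.90), or 0.66 in log2 (0.40 to 0.92), with an adjusted p = 6.84e-06 from the exact test. For miR-25-3p, the guide strand of its hairpin, the ratio was 1.23 (1.15 to 1.32), or 0.30 in log2 (0.20 to 0.40), with an adjusted p = 6.02e-08 from the exact test. Thus 3 of the 4 arms tested were higher in HC-Exo with an adjusted p-value under 0.05, against 13.8% of the 340 miRNAs and 28.1% of the 135 with at least 100 reads.
The log2 ratio of miR-93-3p was 0.81, but its interval ran from -0.27 to 1.98 and its adjusted p = 0.294 from the exact test missed the threshold. The median log2 ratio was 0.73 over the 4 arms and 0.10 over the 340 miRNAs. When cultures were assumed to vary with a coefficient of 0.1, edgeR's exact test left no arm past the threshold, and the adjusted p-values ran from 0.175 for miR-106b-3p and miR-93-5p to 0.563 for miR-93-3p.

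**Figure D2:**
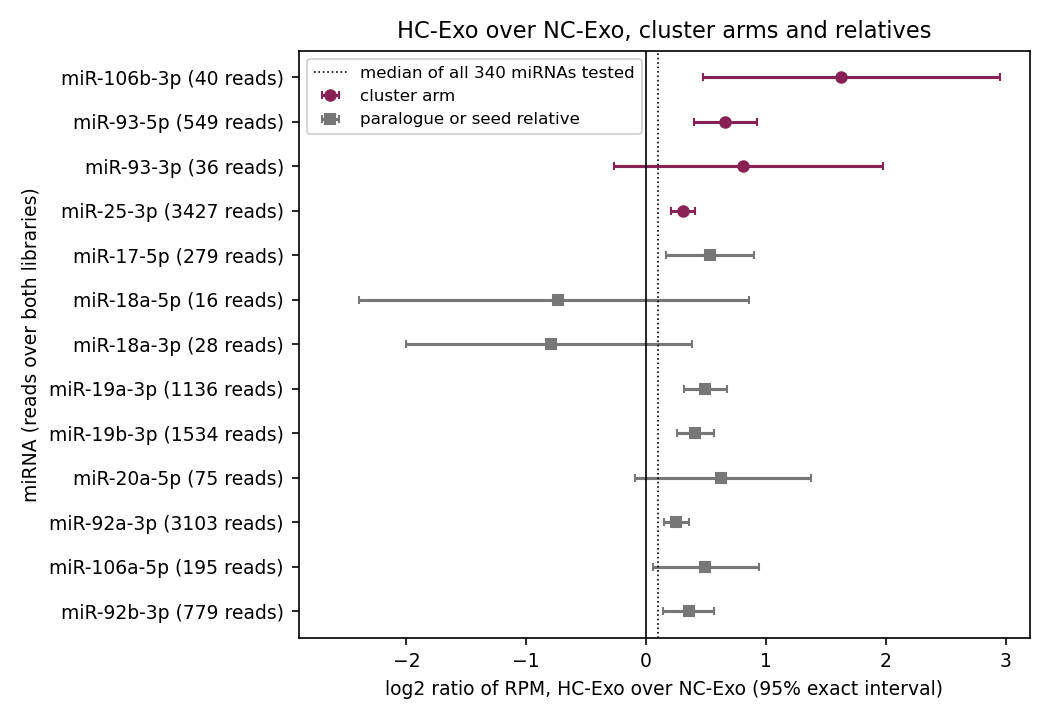
Log2 ratio of RPM in HC-Exo over NC-Exo for the 4 arms tested (purple circles) and 9 relatives (grey squares), with 95% exact intervals. Relatives are miRNAs of the paralogous clusters or with a member's seed. The dotted line is the median over the 340 miRNAs tested. The intervals of miR-106b-3p, miR-93-5p and miR-25-3p lie above 0 and that of miR-93-3p includes it.

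The members come from 1 primary transcript, so their ratios were compared with each other by Fisher's exact test over 15 pairs of arms. No pair passed an adjusted p-value of 0.05, and 2 had an unadjusted p-value under it. The 15 pairs include those with miR-106b-5p or miR-25-5p, whose reads are too few to show a difference. Adjusted over the 6 pairs of arms with at least 10 reads, no pair passed either, and the same 2 had an adjusted p = 0.0623 from Fisher's exact test. The log2 ratio of miR-25-3p minus that of miR-93-5p was -0.36 (-0.64 to -0.07, Fisher's exact test, p = 0.0119, adjusted p = 0.156). That of miR-106b-3p was above that of miR-25-3p by 1.32 (0.17 to 2.65, Fisher's exact test, p = 0.0208, adjusted p = 0.156). The difference of miR-106b-3p and miR-93-5p was 0.96 (-0.22 to 2.32, Fisher's exact test, adjusted p = 0.569), an interval that allows more than 1 log2 unit.
Summed over the 6 arms, the cluster took 1518 NC-Exo reads and 2539 HC-Exo reads, 1.48% and 1.91% of the libraries, a ratio of 1.29 (1.21 to 1.37). Most of this sum was miR-25-3p, so the 5 other arms were also summed. They had 201 and 429 reads, a ratio of 1.64 (1.39 to 1.95). Of these reads, miR-93-5p alone had 180 in NC-Exo and 369 in HC-Exo, so this second sum mostly restates that arm.

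The balance of the arms was next compared, since the ratio of 2 arms of 1 hairpin does not depend on how the libraries are scaled. The hairpins differed in which arm was found. Of the miR-25 reads, NC-Exo had 99.8% on the 3p arm (99.5 to 99.98%, 95% Clopper-Pearson) and HC-Exo 99.9% (99.7 to 99.99%). Of the miR-93 reads, 5.76% were on the 3p arm in NC-Exo (2.91 to 10.1%) and 6.35% in HC-Exo (4.15 to 9.22%), so 5p was the main arm.
For miR-106b the 3p arm had 8 of 8 reads in NC-Exo (63.1 to 100%) and 32 of 33 in HC-Exo, or 97.0% (84.2 to 99.9%). Its 5p arm, commonly named as the guide, thus had 1 read over both libraries beside 40 on the 3p arm. Sharing the seed with miR-106b-5p, miR-93-5p had 549 reads over both libraries, miR-17-5p had 279 and miR-20a-5p had 75. In the RefSeq rat table the Mir106a gene gives a mature sequence identical to miR-17-5p, whereas the count table has a separate row miR-106a-5p at 672 and 946 RPM. Elsewhere some rows held equal counts, such as miR-486a-5p and miR-486b-5p with 654 and 875 reads each. Such rows may share reads, and whether each read was counted in full in every row is not known. How reads of near-identical sequence were counted among the rows of this seed was not tested, so the level of miR-106b-5p is uncertain.

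Between the libraries no change of arm balance was detectable in the cluster. For miR-93 the log2 odds ratio of 3p over 5p was 0.15 (-0.96 to 1.35, Fisher's exact test, adjusted p = 0.978 over 64 hairpins with at least 10 reads on each arm). Of these 64, 6.25% had an adjusted p-value under 0.05, namely the hairpins of miR-28a, miR-351, miR-423 and miR-126a. The minor arms of miR-106b and miR-25 had too few reads for that comparison, and Fisher's exact test gave unadjusted p = 1 and p = 0.641. Over all hairpins with both arms listed and at least 10 reads, the median share of the minor arm was 7.50%. It was 2.44% for miR-106b, 6.15% for miR-93 and 0.117% for miR-25, and 5 hairpins had a lower share than miR-25.

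**Figure D3:**
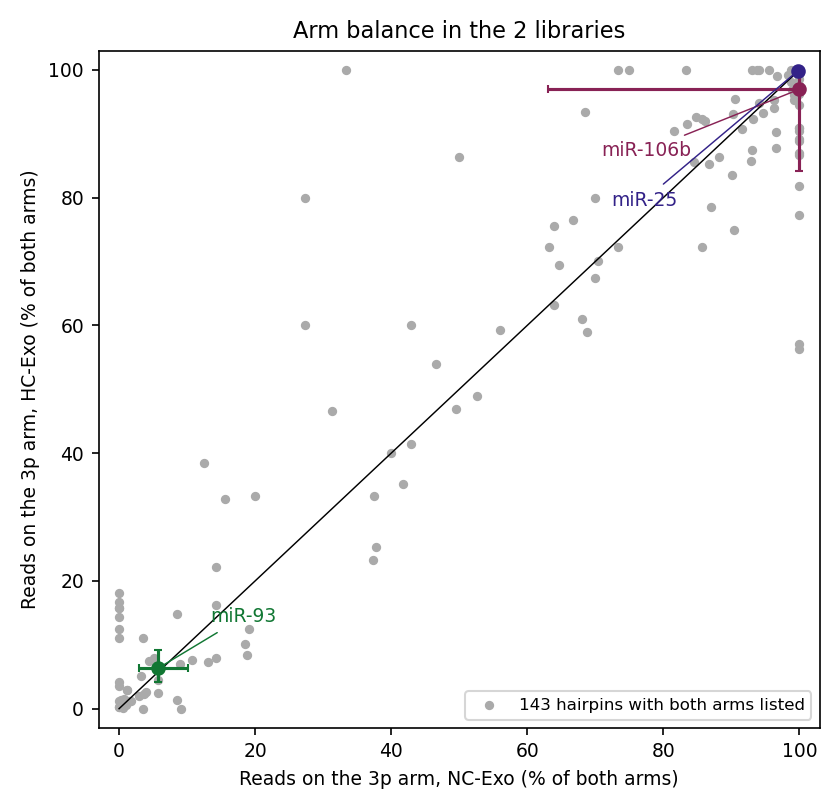
Share of reads on the 3p arm in NC-Exo (x axis) and HC-Exo (y axis), in percent of both arms, for every hairpin with both arms listed and at least 10 reads (grey), 1 library per axis. Bars for miR-106b, miR-93 and miR-25 are 95% Clopper-Pearson intervals and the line marks equal shares. miR-25 and miR-106b lie at the 3p end and miR-93 at the 5p end in both libraries.

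Relatives were taken as 25 miRNAs, from the paralogous clusters miR-17-92 and miR-106a-363 or from elsewhere with the seed of miR-25-3p. Of these 25, 11 were listed and 9 had at least 10 reads. Of these 9, 5 were higher in HC-Exo with an adjusted p-value under 0.05 and 0 were lower. These 5 were among the 6 relatives with at least 100 reads. Of the 5, miR-17-5p, miR-92a-3p and miR-92b-3p have a member's seed. miR-19a-3p and miR-19b-3p were not among the rows with a member's seed and were included as part of the miR-17-92 cluster. The share higher by that rule was 13.8% of the 340 miRNAs and 28.1% of the 135 with at least 100 reads. None of the 9 changed by 1 log2 unit or more, which with an adjusted p-value under 0.05 was so of 4.71% of the 340. Their median log2 ratio was 0.41, and that of the 340 was 0.10. In the miR-17-92 cluster, miR-19a-3p had 402 and 734 reads (0.49 in log2, adjusted p = 7.34e-07, exact binomial test). miR-19b-3p had 563 and 971 reads (0.41, adjusted p = 1.60e-06, exact binomial test). The guide miR-92a-3p had 1219 and 1884 reads (0.25 in log2, adjusted p = 3.07e-05, exact binomial test). Counts are by mature name, so reads from any other locus with the same mature sequence would be included in these rows.
miR-17-5p had 97 and 182 reads (0.53, adjusted p = 0.0186, exact binomial test), and miR-92b-3p, from a locus of its own, 2856 and 3650 RPM (0.35, adjusted p = 0.00678, exact binomial test). miR-20a-5p, miR-106a-5p and both arms of miR-18a were not past the threshold, with log2 ratios from -0.79 for miR-18a-3p to 0.62 for miR-20a-5p. With upper-quartile scaling, which shifts every log2 ratio by -0.12, 2 of the 9 relatives stayed past the threshold, while miR-25-3p (0.18), miR-93-5p (0.54) and miR-106b-3p (1.50) did so as well.
The members were also set against their seed relatives. The log2 ratio of miR-25-3p differed from that of miR-92a-3p by 0.05 (-0.09 to 0.20) and from that of miR-92b-3p by -0.05 (-0.29 to 0.19). For miR-93-5p the difference was 0.13 (-0.33 to 0.58) from miR-17-5p and 0.04 (-0.77 to 0.81) from miR-20a-5p. None of these 4 pairs, chosen after the values were seen, passed Fisher's exact test, with adjusted p-values from 0.911 to 1. Among the rows with a RefSeq sequence, the 4 with seed AUUGCAC together had 27581 RPM in NC-Exo and 33690 RPM in HC-Exo, of which miR-25-3p made up 46.5% and 47.0%. Likewise, the 4 with seed AAAGUGC had 2943 and 4521 RPM, of which miR-93-5p made up 59.6% and 61.3%. The row miR-106a-5p had no sequence of that name and is not part of these sums.

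By the distance of log2 RPM over the 2 libraries, the miRNA most like miR-25-3p was its seed relative miR-92a-3p, at a distance of 0.20, followed by miR-143-3p at 0.40. miR-27a-3p (0.27) and miR-133b-3p (0.28) were most like miR-93-5p. miR-490-3p had the same 11 and 25 reads as miR-93-3p, and miR-7a-5p was next at 0.06. miR-486a-3p and miR-486b-3p, both listed with 8 and 26 reads, were most like miR-106b-3p at 0.30. With 2 libraries this measure says only that level and ratio were alike.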

How the data were processed

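Small RNA libraries of NC-Exo and HC-Exo were analysed, 1 of each. The authors deposited raw counts of reads per mature miRNA, without normalization, and every test started from these counts. The submitters' processing notes name Bowtie2, mm9 and GRCm38, and the labels give an Illumina small RNA kit; trimming, read filters, mismatches allowed and the treatment of reads that match several miRNAs are not given in the sources used here. Rat reads were named after mouse miRNAs, which could move reads between rows of similar sequence. The authors' deposited normalized values and their comparison table, with fold changes and p-values, were not used.

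RPM were computed with totals of 102608 and 133155 reads, so that each single read is worth 9.75 and 7.51 RPM. Because some rows held equal counts in both libraries, these totals and the miRNAs tested may include the same reads more than once. Differences between libraries were tested by a two-sided exact binomial test in the 340 miRNAs whose reads over both came to 10 or more, with Benjamini-Hochberg adjustment, at an adjusted p-value of 0.05. Arms, and pairs of members, were compared by Fisher's exact test with conditional odds ratios. Intervals are 95% exact. No spread between cultures can be estimated. Named miRNAs are all arms of the cluster, the tested relatives, the 2 miRNAs nearest to each tested arm and the arm pairs past the threshold. Outside this rule, some cell type markers were named, miR-32-5p for its seed and miR-486b-5p for its equal counts. Members, lists and tests were chosen with earlier results of these data known. The tests were checked on simulated counts with counting error only, so this check does not cover spread between cultures. Python 3.11.15, scipy 1.17.1, edgeR 4.0.16 and DESeq2 1.42.0 were used, the last 2 for alternatives of scaling and of assumed spread.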

Additional observations from a re-analysis of the deposited data

How the results depend on the processing

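No paired analysis was possible because each condition had 1 library, and no replicate could be left out. The log2 ratios of the 4 arms tested kept their direction under every alternative that could be run. miR-106b-3p had too few reads for the filters of 10 reads in each library or 50 over both, and miR-93-3p for the latter. With 5 reads added to each count, the log2 ratio of miR-106b-3p fell from 1.62 to 1.13, near the limit of 1. Under TMM, DESeq2, upper-quartile and top-10-free scaling, miR-106b-3p (lowest 1.50), miR-93-5p (0.54) and miR-25-3p (0.18) stayed past the threshold. When a coefficient of variation of 0.1, 0.2 or 0.4 was assumed, the exact test of edgeR lost miR-106b-3p (log2 ratio 1.62), miR-93-5p (0.66) and miR-25-3p (0.30), and it passed 0 miRNAs higher, 0 lower and 0 relatives. By unadjusted p-values under 0.05 and the limit of 1 log2 unit it passed 28, 20 and 1 of all miRNAs.

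Of all miRNAs, 9 were called higher and 7 lower. Upper-quartile scaling gave 5 higher, a filter of 50 reads over both libraries 5 higher and 2 lower, and one of 10 reads in each library 2 lower, as fewer were tested. Without the log2 limit, 47 were higher and 29 lower. Against 5 relatives past the threshold, 2 passed with upper-quartile scaling and 3 with totals free of the 10 most abundant miRNAs, counts added after the data were seen. The log2 ratio of the summed cluster, 0.37, was 0.24 with upper-quartile scaling and 0.72 without miR-25-3p, the latter chosen after the data were seen. The 3p share of miR-106b in HC-Exo minus that in NC-Exo was -3.03 percentage points, and adding 0.5 reads to each cell turned this to 1.14, since it rests on 1 read of the 5p arm, so no direction can be read from it. With 50 reads on each arm, 9 hairpins passed in place of 4, as the same p-values of Fisher's exact test were adjusted over fewer hairpins. Depth limits miR-106b-5p and miR-25-5p, which had at most 2 reads in a library.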
